A study of Mus musculus with 40 samples.

Results

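The collagen and laminin genes are the rows of the count table whose mouse symbol is Col, a number, the letter a and a number, or Lama, Lamb or Lamc and a number. The rule found 55 genes among 55471 in the table, 44 collagens and 11 laminins, and each symbol occurred once. Punches of the ventral tegmental area, which holds dopamine neurons of the midbrain, were taken from adult mice and sequenced as 40 libraries, 5 in each of 8 groups. In repeated cross fostering (RCF) pups were given to a different adoptive dam every day over postnatal days 1 to 4, and control litters were not handled in this way. The groups were DBA RCF males, DBA control males, DBA RCF females, DBA control females, C57/Bl6 (C57) RCF males, C57 control males, C57 RCF females and C57 control females. The study compared RCF with control in each strain and sex. No label ties a library to an animal or a litter. The p-values therefore reflect the spread among the libraries sequenced, which may be technical. The samples were bulk tissue punches, in which fewer cells of a type and less RNA per cell cannot be told apart.

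Collagens are extracellular proteins in which alpha chains wind around each other in a helix. The fibrillar collagens, such as types I and III, build the fibrils of connective tissue. Type IV collagen forms sheets in basement membranes, the thin layers on which endothelium and other cells sit. Laminins, which combine an alpha, a beta and a gamma chain, start the assembly of these layers and bind cells through integrins and dystroglycan. In the brain, basement membranes surround blood vessels and lie beneath the meninges, and fibrillar collagen is made mainly by fibroblasts of the meninges and of the larger vessels. By class the genes comprised 11 fibrillar collagens, 6 basement membrane collagens, 2 multiplexins, 9 fibril-associated collagens, 8 microfibrillar and related collagens, 3 short-chain network collagens, 1 anchoring fibril collagen, 4 transmembrane collagens, 5 laminin alpha chains, 3 beta chains and 3 gamma chains.

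Library totals ran between 16913124 and 28179071 counts. The punches differed in what they held: Th, the rate-limiting enzyme of dopamine synthesis, ranged over 0.655 to 1603 CPM (counts scaled to each library's total), and Slc17a7, a transporter of cortical and other forebrain glutamate neurons, over 2.85 to 1226 CPM. In 11 of 40 libraries Th was under 20 CPM. Of the libraries 4 stood apart: C57 control males 1 and 5 and DBA control female 3 had the highest scores for forebrain glutamate neuron markers, and C57 RCF female 4 had the highest level of Hoxb5 (30.6 CPM), a gene of the hindbrain and spinal cord. Calls of named members that were lost without these 4 libraries are given with and without them. Counts of called members in refits (fewer libraries or added covariates) are given without the share of all genes called there. A moved count is therefore not a result about the members.

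Of the 55 genes, 54 passed the low-count filter and were tested. The exception was Col10a1, a collagen of cartilage undergoing ossification, which had 0 counts in 12 libraries and at most 7 counts in any. All 55 together made up between 628 CPM (DBA control female 5) and 1269 CPM (DBA control male 4) after scaling by trimmed mean of M-values (TMM), the scale of all CPM values below. The members varied more than most genes: the median within-group standard deviation of log2 CPM was 0.62 over the 54 members and 0.29 over all 18441 genes tested. Among members this spread was smallest for Lamc1 (0.15) and largest for Col6a6 (1.17).

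Levels were compared between genes per kilobase of exon. Col4a2 had the highest median of the 40 libraries (16.7 CPM per kilobase), and its partner chain Col4a1 stood at 8.11 CPM per kilobase. Col11a2 (8.49), Col16a1 (7.40), Col11a1 (6.79), Col25a1 (6.75), Lamb2 (6.42), Col9a2 (5.86) and Lamc1 (5.41 CPM per kilobase) came next in median. Their ranges overlapped across libraries, so their order is not resolved beyond the spread. The classical type I and III chains were lower, with medians of 1.59 (Col1a1), 1.108 (Col1a2) and 0.628 (Col3a1) CPM per kilobase. Among laminin alpha chains the medians were 1.35 (Lama5), 0.675 (Lama1), 0.654 (Lama2), 0.499 (Lama4) and 0.386 (Lama3) CPM per kilobase. The beta and gamma chains Lamb2 and Lamc1 thus exceeded every alpha chain in median level.

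**Figure D1:**
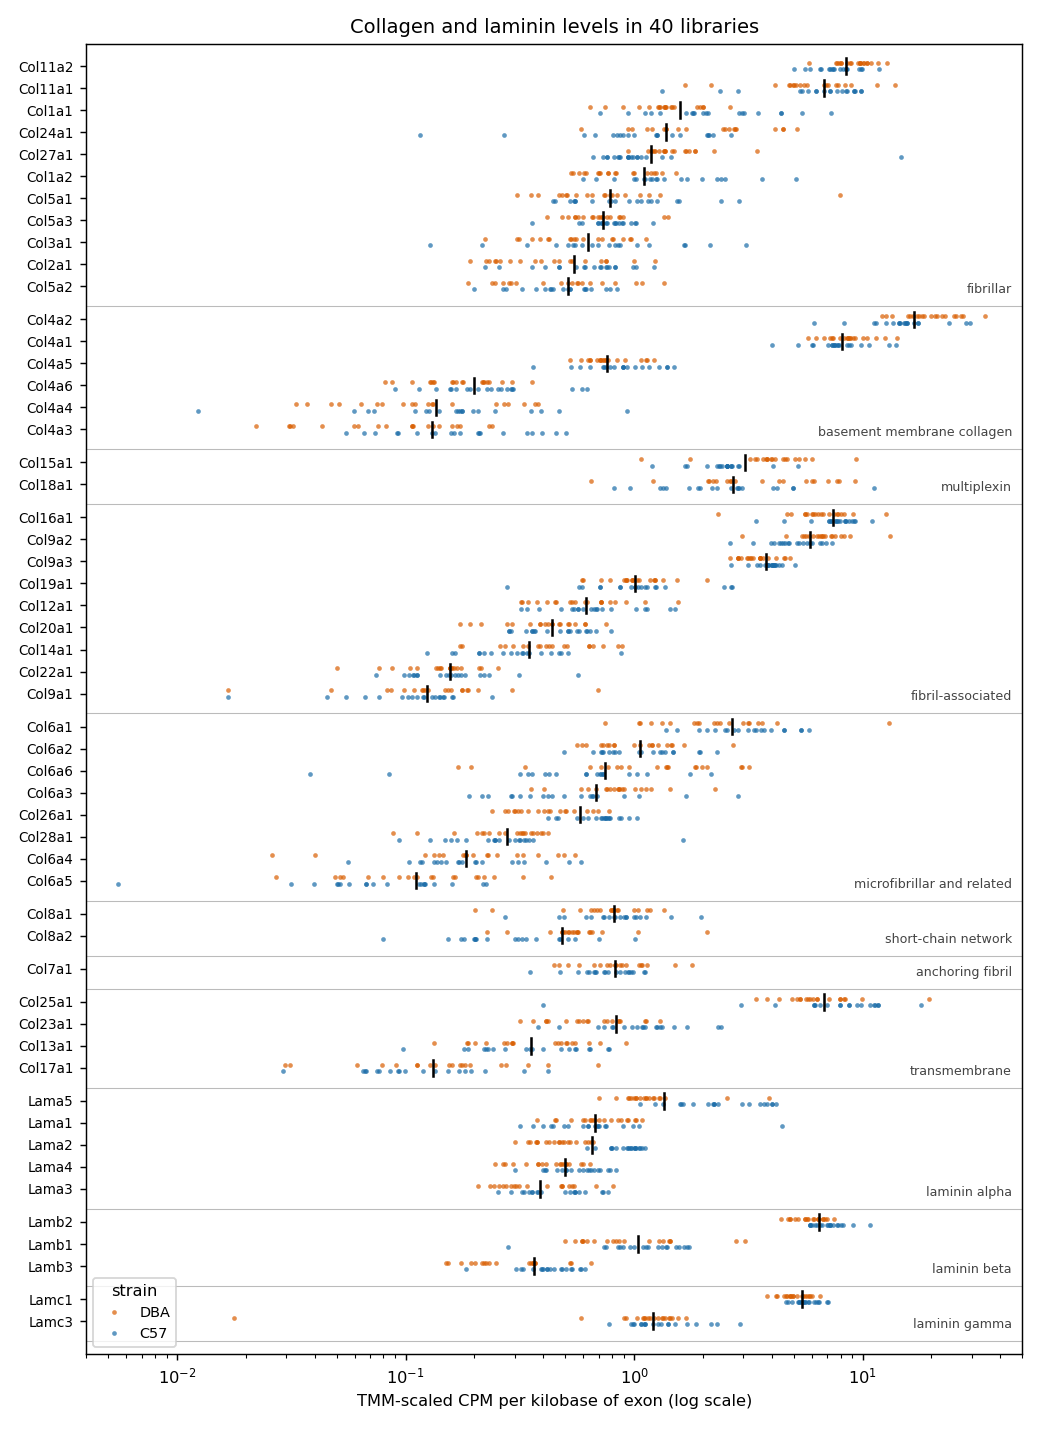
TMM-scaled CPM per kilobase of exon (log axis) of 53 tested members in each library, DBA libraries in orange above C57 libraries in blue, with a black bar at the median of all 40 and genes grouped by class. Col4a2 has the highest median at 16.7, and the 1 library in which Col17a1 had 0 counts is not drawn.

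Few libraries set the extremes of many members. Col11a1, a minor fibrillar chain known from cartilage, had a lowest level of 16.9 CPM (C57 RCF female 4), a median of 86.5 CPM and a highest of 177 CPM (DBA control male 4). Col25a1, a transmembrane collagen of neurons that was first found in amyloid plaques, spanned 5.17 CPM in the same C57 RCF female and 253 CPM in DBA control male 3, around a median of 87.3 CPM. C57 RCF female 4 was also lowest for Col4a1 (29.8 CPM) and Col4a2 (40.3 CPM), and highest for Col27a1 (191 CPM), Col18a1 (78.4 CPM) and Lama1 (43.0 CPM). DBA control male 4, the library with the smallest total and the lowest meninges marker score, was highest for Col4a1 (105 CPM), Col4a2 (227 CPM), Col15a1 (59.1 CPM) and Col24a1 (39.4 CPM). In this library the hypothalamus and mammillary markers scored below summed to 1251 CPM, the highest sum of all libraries. DBA control female 3 was highest for Col5a1 (67.4 CPM), Col6a1 (57.1 CPM) and Lamb1 (30.3 CPM).

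Several collagen IV genes lie head to head in the genome, so that paired chains are transcribed away from a shared start region. By the GENCODE annotation of GRCm38, Col4a1 and Col4a2 start 21 bases apart on chromosome 8, Col4a3 and Col4a4 start 72 bases apart on chromosome 1, and Col4a5 and Col4a6 start 1309 bases apart on chromosome X. RefSeq promoter windows (GRCm38.p6, 250 bases before and 50 after the start) were available for 40 of the 55 members. The windows of Col4a1 and Col4a2 are shown because their levels had the highest correlation of the 6 pairs below, and those of Col3a1 and Col1a2 because these fibrillar genes had steep slopes on meninges markers below. Capitals mark the motif TATAAA of the TATA box, the promoter motif CCAAT named by its own letters, and the motif GGGCGG of the GC box, each on both strands, so that a match to the other strand is printed as its reverse complement. No motif overlaps another within a window, and the Col4a1 and Col4a2 windows overlap each other on opposite strands.
Col4a1 (chr8:11312777-11313076, minus strand): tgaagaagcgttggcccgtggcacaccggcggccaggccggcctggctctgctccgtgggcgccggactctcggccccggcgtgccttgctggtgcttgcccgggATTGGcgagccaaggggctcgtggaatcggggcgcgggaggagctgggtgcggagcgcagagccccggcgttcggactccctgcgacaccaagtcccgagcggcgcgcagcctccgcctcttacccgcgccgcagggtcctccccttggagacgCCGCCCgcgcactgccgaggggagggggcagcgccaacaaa
Col4a2 (chr8:11312555-11312854, plus strand): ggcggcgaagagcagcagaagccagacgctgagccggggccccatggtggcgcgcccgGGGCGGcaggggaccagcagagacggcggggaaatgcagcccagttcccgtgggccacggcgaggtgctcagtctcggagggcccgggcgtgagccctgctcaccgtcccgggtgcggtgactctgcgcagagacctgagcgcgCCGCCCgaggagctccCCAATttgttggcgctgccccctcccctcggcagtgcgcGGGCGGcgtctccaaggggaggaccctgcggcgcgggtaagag
Col3a1 (chr1:45311288-45311587, plus strand): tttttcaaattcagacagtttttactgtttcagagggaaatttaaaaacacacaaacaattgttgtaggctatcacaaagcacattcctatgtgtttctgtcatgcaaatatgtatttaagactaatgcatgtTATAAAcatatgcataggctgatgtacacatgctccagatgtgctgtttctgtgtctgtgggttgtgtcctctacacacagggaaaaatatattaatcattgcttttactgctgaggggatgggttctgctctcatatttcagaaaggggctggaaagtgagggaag
Col1a2 (chr6:4505368-4505667, plus strand): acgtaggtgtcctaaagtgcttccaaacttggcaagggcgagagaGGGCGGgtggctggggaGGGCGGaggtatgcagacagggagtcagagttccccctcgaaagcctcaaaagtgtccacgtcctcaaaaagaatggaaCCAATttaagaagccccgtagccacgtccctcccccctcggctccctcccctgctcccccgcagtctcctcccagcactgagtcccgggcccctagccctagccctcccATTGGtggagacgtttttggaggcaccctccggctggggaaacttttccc
The 4 windows differ in composition, with 74.0% G or C for Col4a1, 73.7% for Col4a2, 61.0% for Col1a2 and 37.7% for Col3a1. TATAAA occurred in the Col3a1 window and in neither collagen IV window. Of 44 windows of members, 5 held TATAAA, 14 held CCAAT and 26 held GGGCGG. In all 32851 windows of the table these motifs occurred in 13.6%, 37.4% and 35.7%. A match is a run of letters and not a shown binding site.

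The 6 pairs of collagen genes examined varied together across libraries. Of these, Col1a1 and Col3a1 belong to different collagens, types I and III, and no other gene pairs were tested beside them. In 6 gene pairs, log2 CPM values were taken as deviations from their group mean in 40 libraries, and p-values came from 100000 permutations within groups, adjusted over the 6 pairs. The 2 genes of a pair come from the same library and so share its depth and tissue content. Col4a1 and Col4a2 had a Pearson r of 0.95 and a Spearman rho of 0.90 (permutation p = 1e-05 for each, the smallest these permutations can give, adjusted p = 2e-05). Without the 2 libraries farthest from the median of Col4a1, r was 0.92. For Col1a1 and Col1a2, which build type I collagen, r was 0.86 and rho 0.81 (permutation p = 1e-05, adjusted p = 2e-05), and r was 0.81 without the 2 farthest libraries. For Col1a1 and Col3a1 the values were r = 0.91 and rho = 0.84 (permutation p = 1e-05, adjusted p = 2e-05), and r = 0.87 without those 2. In DBA libraries alone the type I pair had r = 0.60, against 0.93 in C57 libraries alone, and this difference was not tested.

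The other pairs were looser. Col4a3 and Col4a4, chains of the kidney glomerular membrane that are sparse in brain, had r = 0.71 and rho = 0.70 (permutation p = 4.0e-05 and 6.0e-05, adjusted p = 4.8e-05 and 7.2e-05), with r = 0.69 without the 2 farthest libraries. Col6a1 and Col6a2, microfibril chains, had r = 0.72 and rho = 0.65 (permutation p = 4.0e-05 and 6.0e-05, adjusted p = 4.8e-05 and 7.2e-05). Their r was 0.56 without the 2 farthest libraries and 0.57 without the 4 that stood apart. Col4a5 and Col4a6 had r = 0.53 and rho = 0.46 (permutation p = 0.00349 and 0.00846, adjusted p = 0.00349 and 0.00846). That r was 0.48 without the 2 farthest libraries, and it was 0.16 in DBA libraries alone and 0.69 in C57 libraries alone.

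Meningeal content was read from 15 fibroblast markers of the meninges that include no collagen or laminin, such as Dcn, Ogn and Slc6a13. Their mean log2 CPM is called the meninges score. It ranged between -0.57 (DBA control male 4) and 3.99 (C57 control male 3). The summed level of the 15 markers lay between 21.1 and 314 CPM, so every library held RNA of some of them. The cells this RNA came from were not tested. Lum, Ogn, Slc6a13 and Slc22a6 were each at 0 in 1 library. A slope on the score within groups was fitted for all genes, in log2 units per unit of score.

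Type I and III collagen tracked the meninges score. Col1a2 had 6.61 CPM in its lowest library, a median of 13.8 CPM and a highest level of 63.2 CPM (C57 control male 3). Its slope was 0.65 ± 0.08 (SE; edgeR adjusted p = 1.69e-06). Col3a1, the type III chain, spanned 1.26 CPM (C57 control male 1) to 30.2 CPM (C57 control male 3) around a median of 6.16 CPM, with a slope of 0.77 ± 0.14 (adjusted p = 0.000733). Col1a1 spanned 4.21 to 47.6 CPM around a median of 10.4 CPM, with a slope of 0.59 ± 0.12 (adjusted p = 0.00283). The 3 libraries highest in Col1a2 were all C57 and had the 3 highest meninges scores. Of the 11 fibrillar genes these 3 rose with the score. Col5a1 (0.32 ± 0.21) and Col5a2 (0.42 ± 0.14), which regulate fibril diameter, did not pass the test.

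In all, 9 of the 54 tested members rose with the meninges score and 0 fell, against 1.25% of all 18441 genes called in either direction (1.12% of genes rose and 0.125% fell). The median slope was 0.05 over members and close to 0.00 over all genes. The basement membrane collagens that rose were Col4a6 (0.64 ± 0.11, adjusted p = 0.000502) and Col4a5 (0.31 ± 0.08, adjusted p = 0.0281). Col4a1 (-0.04 ± 0.07) and Col4a2 (-0.08 ± 0.08), the chains of nearly every basement membrane, did not pass. Col4a6 levels lay between 0.649 and 4.95 CPM around a median of 1.59 CPM, and Col4a5 levels between 2.42 and 10.1 CPM around a median of 5.11 CPM.

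Among laminins Lamb2, a beta chain of vessels and synapses, rose: its slope was 0.19 ± 0.03 (adjusted p = 0.000733), over levels of 26.7 to 65.7 CPM and a median of 39.0 CPM. Lamc3, a gamma chain described in the cortex and its surface, rose by 0.49 ± 0.12 (adjusted p = 0.0352). Its lowest level, 0.108 CPM (2 counts), was in DBA control male 4 and its highest, 17.8 CPM, in C57 control male 3. Lamc3 shares 382 exon bases with the antisense gene Gm13441, and no source used here says whether counting used strand. The remaining calls were Col9a3 (0.18 ± 0.04, adjusted p = 0.0142), a cartilage fibril-associated chain, and Col13a1 (0.53 ± 0.14, adjusted p = 0.0434), a transmembrane collagen of the neuromuscular junction. Col9a3 shares 234 exon bases with the antisense gene Tcfl5. Both multiplexins, Col15a1 (-0.09 ± 0.11) and Col18a1 (-0.29 ± 0.19), lay below 0 and did not pass.

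These slopes leaned on few libraries. Without C57 control male 3, which has the highest score, 5 members were called. Leaving out single libraries ended the call of Lamc3 in 6 of 40 fits (adjusted p up to 0.214), of Col4a5 in 6 (up to 0.129), of Col9a3 in 3 (C57 control males 1 and 3 and DBA control male 4, up to 0.0887) and of Col13a1 in 19 (up to 0.141). The calls of Col1a1, Col1a2, Col3a1, Col4a6 and Lamb2 were kept in all 40. Without the 4 stand-apart libraries the Col13a1 slope was 0.49 (adjusted p = 0.157) and the Col4a5 slope 0.26 (adjusted p = 0.131). In DBA libraries alone 3 members rose and 2 fell, and the slopes were 0.41 for Col1a2, 0.43 for Col3a1 and 0.10 for Col1a1 (adjusted p = 0.0771, 0.211 and 0.755). In C57 libraries alone, where scores reached higher, 7 members rose, and the slopes of these genes were 0.76, 0.92 and 0.82. The difference between the strains in these slopes was not tested, and the counts in 1 strain have no share of all genes beside them.

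**Figure D2:**
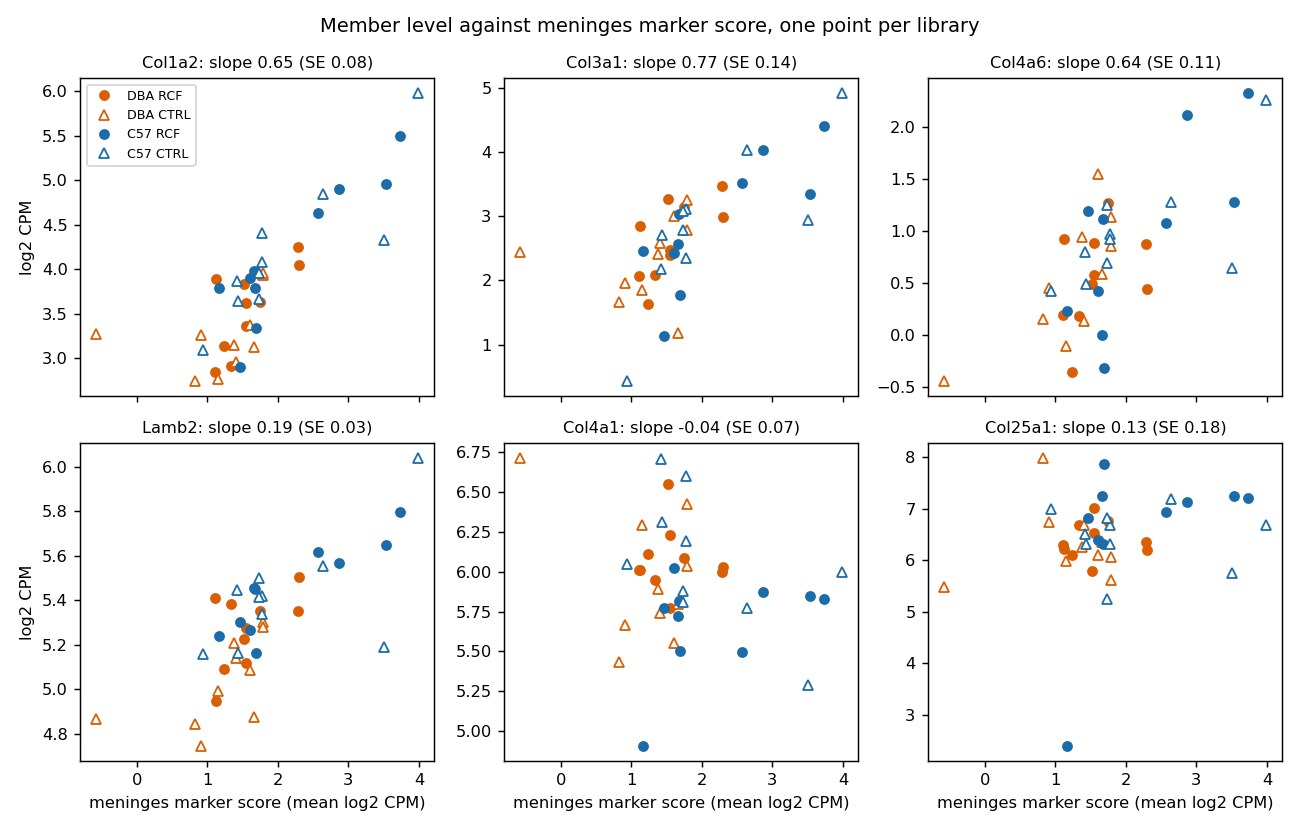
log2 CPM of 6 members against the meninges marker score (mean log2 CPM of 15 genes), 1 point per library, DBA in orange and C57 in blue, RCF filled and control open. Col1a2, Col3a1, Col4a6 and Lamb2 rise along the score with slopes of 0.65, 0.77, 0.64 and 0.19, while Col4a1 and Col25a1 have slopes of -0.04 and 0.13 that did not pass the test.

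Vascular content was scored from 13 endothelial markers (score 4.24 to 5.21) and 12 markers of mural cells, the pericytes and smooth muscle of vessels (score 2.82 to 4.72). On the endothelial score 4 members rose and 0 fell, against 1.87% of all genes called (1.44% rose and 0.423% fell). They were Lamb2 (0.87 ± 0.16, adjusted p = 0.00326), Lamc1 (0.61 ± 0.12, adjusted p = 0.00435), Col9a3 (0.84 ± 0.19, adjusted p = 0.0179) and Col3a1 (2.76 ± 0.75, adjusted p = 0.0478). Lamc1 encodes the gamma chain shared by most laminins, and it spanned only 31.5 to 58.3 CPM around 44.8 CPM. On the mural score 7 rose and 0 fell, against 0.944% of all genes (0.916% rose and 0.0271% fell): Lamb2 (0.41 ± 0.06), Col3a1 (1.60 ± 0.24), Col1a2 (1.14 ± 0.18), Col4a6 (1.25 ± 0.22), Lamc1 (0.26 ± 0.05), Lama4 (0.57 ± 0.14) and Col1a1 (0.98 ± 0.24). Without C57 control male 1 or DBA RCF female 2 the endothelial score called 2 members. The Col3a1 call on the endothelial score was lost in 27 of 40 fits that left out a library (adjusted p up to 0.132), and the Lama4 and Col1a1 calls on the mural score in 8 and 11. Without the 4 stand-apart libraries the Col3a1 slope on the endothelial score was 2.01 (adjusted p = 0.169) and the Col1a1 slope on the mural score 0.81 (adjusted p = 0.131). Lama4 is the alpha chain of capillary endothelium.

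The meninges, endothelial and mural scores could not be separated for these genes. With all 3 scores in one model 0 members were called on any of them, for instance Col1a2 on the meninges score at 0.50 (adjusted p = 0.0657) and Lamb2 at 0.07 (adjusted p = 0.601). In DBA libraries alone no member was called on the mural score. Col4a1 and Col4a2, which endothelium and pericytes are known to make, passed on none of the 3 scores.

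Neuronal content was scored for the dopamine neurons at which the punches aimed and for neighbouring regions. On the dopamine neuron score (12 markers) 4 members rose and 4 fell, 14.8% of those tested against 13.6% of all genes called (5.98% rose and 7.66% fell), so the share called was near that of all genes. Lama5 (chr2:180176373-180225859, minus strand), an alpha chain of vessels and epithelia, rose by 0.22 ± 0.02 per unit (adjusted p = 2.09e-08), and Col25a1 (0.25 ± 0.05, adjusted p = 0.000593), Col11a1 (0.18 ± 0.04, adjusted p = 0.00327) and Lama3 (0.12 ± 0.03, adjusted p = 0.00745) rose with it. Col6a3 (-0.29 ± 0.06), Col27a1 (-0.20 ± 0.05) and Col18a1 (-0.24 ± 0.07) were among those that fell. In DBA libraries alone the Col11a1 slope was 0.09 (adjusted p = 0.495), and without the 4 stand-apart libraries it was 0.07 (adjusted p = 0.176). Without these 4 libraries 16 members were called on the score, and the share of all genes in that fit is not given here. The Col27a1 call rested on C57 RCF female 4: its slope was -0.02 (adjusted p = 0.672) without that library and -0.06 (adjusted p = 0.173) without the 4 stand-apart libraries. Without C57 RCF female 4 or without DBA control male 3, Col18a1 was not called either (adjusted p = 0.154 and 0.0506). Lama5 kept its call when DBA libraries (0.24) and C57 libraries (0.21) were fitted alone.

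On the score for hypothalamic and mammillary neurons (10 markers) 5 members rose and 3 fell, 14.8% of those tested against 9.63% of all genes called (4.33% rose and 5.29% fell). Here the main basement membrane chains rose, Col4a1 by 0.20 ± 0.03 (adjusted p = 0.000277) and Col4a2 by 0.24 ± 0.04 (adjusted p = 0.000322) per unit of score. Col6a4 (0.49 ± 0.10), Col19a1 (0.31 ± 0.08), a collagen made by some neurons, and Col2a1 (0.30 ± 0.08) also rose. Col28a1 (-0.37 ± 0.09), Lama5 (-0.24 ± 0.07) and Lama3 (-0.21 ± 0.06) fell. Without DBA control male 3 the number of calls was 5 in place of 8, and without the 4 stand-apart libraries it was 14. The shares of all genes in these refits are not given here. The Lama5 and Lama3 calls were lost in 7 and 6 of 40 fits that left out a library. With the dopamine and forebrain scores in the same model Col4a1 stayed at 0.21 and Col4a2 at 0.26, and Lama5 was at 0.00 (adjusted p = 0.991).

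On the forebrain glutamate neuron score (11 markers) 4 members rose and 5 fell, 16.7% of those tested against 13.5% of all genes called (9.18% rose and 4.34% fell). The 5 that fell were Col11a1 (-0.30 ± 0.08, adjusted p = 0.0113), Col11a2 (-0.12 ± 0.04), Col16a1 (-0.18 ± 0.06), Lamb2 (-0.09 ± 0.03) and Col3a1 (-0.39 ± 0.13, adjusted p = 0.0457). Col22a1 (0.26 ± 0.08), a fibril-associated collagen of tissue junctions, rose. Col6a1 (0.36 ± 0.09) and Col5a1 (0.48 ± 0.13) were also among those that rose, and without DBA control female 3 their slopes were 0.07 (adjusted p = 0.807) and -0.04 (adjusted p = 0.925). The number called was 5 without C57 control male 1, 2 without DBA control female 3 and 0 without the 4 stand-apart libraries. Without those 4 the slopes were -0.23 for Col3a1 (adjusted p = 0.884), -0.11 for Lamb2 (0.751), 0.20 for Col22a1 (0.831), 0.10 for Col6a1 (0.944) and 0.18 for Col5a1 (0.857).

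**Figure D3:**
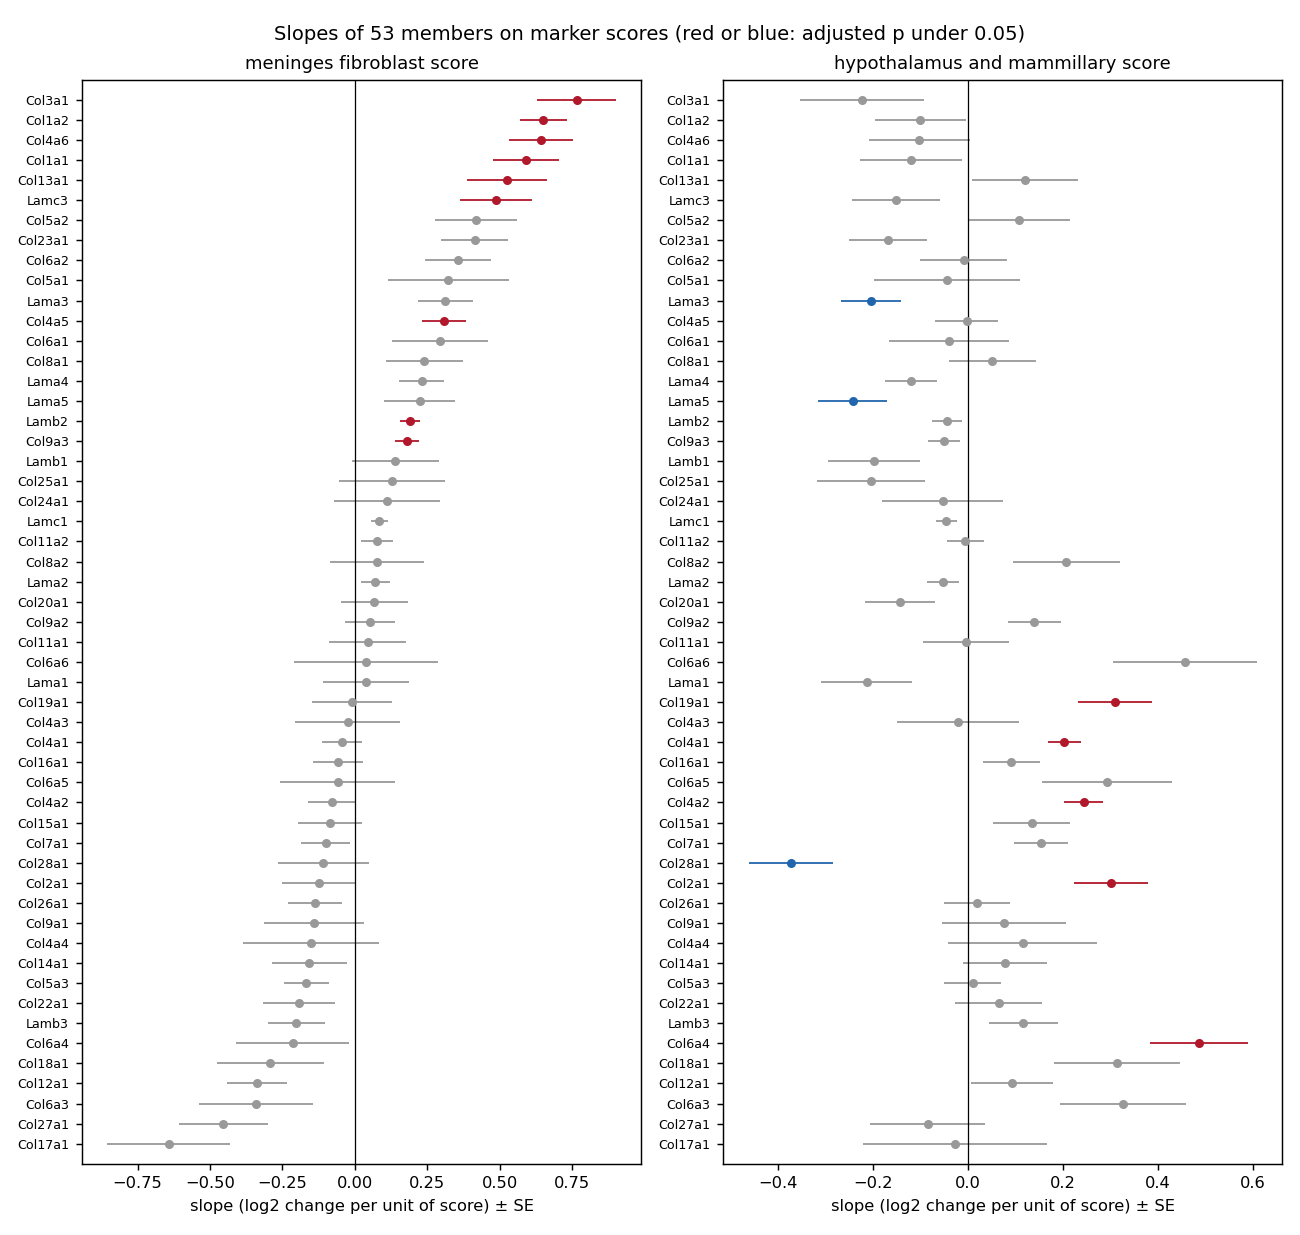
Slopes of 53 tested members (log2 change per unit of score, bars SE) on the meninges fibroblast score (left) and on the hypothalamus and mammillary score (right), in the order of the left panel, with red and blue for adjusted p under 0.05. Col3a1, Col1a2, Col4a6 and Col1a1 head the left panel, while Col4a1 and Col4a2 are called only in the right panel of the 2, at 0.20 and 0.24.

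The strains differed in more members than the treatments did, and the same held over all genes. Of all 18441 genes tested, 16.0% were called by strain in control mice and 23.8% in RCF mice. RCF called at most 0.0163% of them in a strain and sex. Lama2 (chr10:26980036-27619758, minus strand, GRCm38) encodes the alpha chain of the laminin that links muscle and brain cells to dystroglycan, and its loss causes a congenital muscular dystrophy. In control mice it had 4.92, 6.82 and 8.56 CPM in the lowest, median and highest of 10 DBA libraries, against 10.2, 16.04 and 17.6 CPM in 10 C57 libraries. In RCF mice it had 5.63, 8.75 and 10.7 CPM in DBA libraries, against 12.95, 15.03 and 18.2 CPM in C57 libraries. The strains did not overlap under either treatment. The log2 fold change, DBA over C57, was -1.15 ± 0.10 in control mice (adjusted p = 3.69e-11) and -0.81 ± 0.10 in RCF mice (adjusted p = 9.66e-08). It kept its call under all 9 alternatives and in all 40 fits that left out a library, with the meninges, endothelial and mural scores as covariates among them (-1.02 in control mice). Lama2 shares 631 exon bases with the antisense gene Gm48084. DBA reads were compared with a C57-derived genome, and the part of this in any strain difference was not tested.

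In control mice 11 of 54 members differed between the strains (20.4%), 1 higher and 10 lower in DBA, against 16.0% of all genes called (7.87% higher and 8.13% lower). The number called was 17 without DBA control female 3 and 19 without the 4 stand-apart libraries, with no share of all genes given for these refits. The median log2 fold change was -0.20 over members and 0.01 over all genes. The type I chains were lower: Col1a2 had 6.61, 9.19 and 15.4 CPM (lowest, median, highest) in DBA libraries against 8.43, 16.2 and 63.2 CPM in C57 libraries, a log2 fold change of -1.10 ± 0.29 (adjusted p = 0.00648), and Col1a1 (chr11:94936224-94953042, plus strand) was also lower (-1.13 ± 0.32, adjusted p = 0.0114). Ranges overlapped for both. Col2a1, the main cartilage fibrillar chain, fell by 0.89 on the log2 scale (adjusted p = 0.0145) and was the last of the 3 fibrillar genes called.

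Of the laminins Lamb2 (-0.40 ± 0.09, adjusted p = 0.00189), Lama5 (-0.80 ± 0.25, adjusted p = 0.0240) and Lama4 (-0.50 ± 0.17, adjusted p = 0.0402) were lower in DBA control mice beside Lama2. Lamb2 had 26.7, 32.8 and 39.3 CPM in DBA and 35.6, 42.7 and 65.7 CPM in C57 libraries. Lama5 had 7.97, 12.2 and 44.2 CPM in DBA and 12.03, 24.6 and 45.7 CPM in C57 libraries, and its call was lost without C57 control female 3 or C57 control male 3 (adjusted p = 0.0657 and 0.0686). The other lower members were Col4a3 (-1.61 ± 0.38, adjusted p = 0.00245), Col26a1 (-0.70 ± 0.19, adjusted p = 0.00947) and Col23a1 (-0.75 ± 0.26, adjusted p = 0.0445), a transmembrane collagen. The Lama4 and Col23a1 calls were lost in 9 and 13 of 40 fits that left out a library (adjusted p up to 0.0953 and 0.133), and without the 4 stand-apart libraries Lama4 was at -0.51 (adjusted p = 0.0568). Col4a3 shares 563 exon bases with the antisense gene C430014B12Rik. The 1 higher member was Col14a1, a fibril-associated collagen (0.84 ± 0.26, adjusted p = 0.0253; lost in 4 of 40 fits that left out a library, C57 control female 1, C57 control male 5, DBA control female 1 and DBA control male 1), with medians of 2.69 CPM in DBA and 1.84 CPM in C57 libraries.

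In RCF mice 11 members differed as well (20.4%), 6 higher and 5 lower in DBA, against 23.8% of all genes called (11.3% higher and 12.4% lower). The number called was 6 without DBA RCF male 1, and 7 without C57 RCF female 5 or DBA RCF female 4. Both main basement membrane chains were higher. Col4a2 had 105, 138 and 181 CPM in DBA RCF libraries against 40.3, 95.6 and 115 CPM in C57 RCF libraries (0.65 ± 0.16, adjusted p = 0.00376), and Col4a1 differed by 0.39 ± 0.14 (adjusted p = 0.0366). The Col4a1 difference was 0.32 (adjusted p = 0.0580) without the 4 stand-apart libraries. The calls of both chains were lost with the meninges, endothelial and mural scores as covariates, as given below. The hypothalamus and mammillary score, on which both chains rose, averaged 3.63 ± 0.90 in DBA and 2.23 ± 1.32 in C57 RCF libraries (SD, n = 10 each), with summed markers at 98.5 to 394 and 46.8 to 447 CPM and 1 of 10 markers called higher in DBA. Hcrt, the orexin gene, was at 0 in 4 of the 40 libraries. The part of this score in the collagen IV differences was not tested. Col15a1, a multiplexin of vessel basement membranes, had 20.4, 26.9 and 38.0 CPM in DBA against 7.60, 16.1 and 33.1 CPM in C57 libraries (0.79 ± 0.22, adjusted p = 0.00882). Col6a6 (1.71 ± 0.46, adjusted p = 0.00633) and Col6a5 (1.08 ± 0.38, adjusted p = 0.0361), alpha3-like chains of type VI collagen, and Col11a2 (0.31 ± 0.11, adjusted p = 0.0396) were also higher. Every Col6a6 value in DBA RCF libraries (8.75 to 29.1 CPM) was above the highest in C57 RCF libraries, 8.73 CPM, by a narrow margin.

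The 5 members lower in DBA RCF mice included Lama2, Lama5 (-1.16 ± 0.25, adjusted p = 0.000733), Col26a1 (-0.70 ± 0.19, adjusted p = 0.00695) and Col23a1 (-0.71 ± 0.26, adjusted p = 0.0447). Lama5 had 10.7, 12.9 and 29.2 CPM in DBA and 14.1, 37.1 and 47.4 CPM in C57 RCF libraries. The dopamine neuron score, on which Lama5 rose, averaged 4.54 ± 1.49 in DBA and 6.43 ± 2.49 in C57 RCF libraries, and 4.38 ± 1.89 in DBA and 5.24 ± 2.07 in C57 control libraries (SD, n = 10 each). Its markers summed to 269 to 5832 and 292 to 8465 CPM in DBA and C57 RCF libraries, and to 271 to 10867 and 222 to 6600 CPM in DBA and C57 control libraries. Of the 12 markers 4 were called lower in DBA RCF mice and 0 in DBA control mice, and En1 was at 0 in 1 library. The part of this score in the Lama5 differences was not tested. Leaving out single libraries ended the calls of Col4a1, Col11a2, Col23a1 and Col6a5 in 8, 14, 12 and 9 of 40 fits. Members called under both treatments numbered 4, all with the same sign: Lama2, Lama5, Col26a1 and Col23a1. They were 36.4% of each list, while the genes called under both treatments among all genes were 71.6% of the control list and 48.3% of the RCF list. The difference between the strain effects of the 2 treatments was called for 0 members (9 at an unadjusted p under 0.05).

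**Figure D4:**
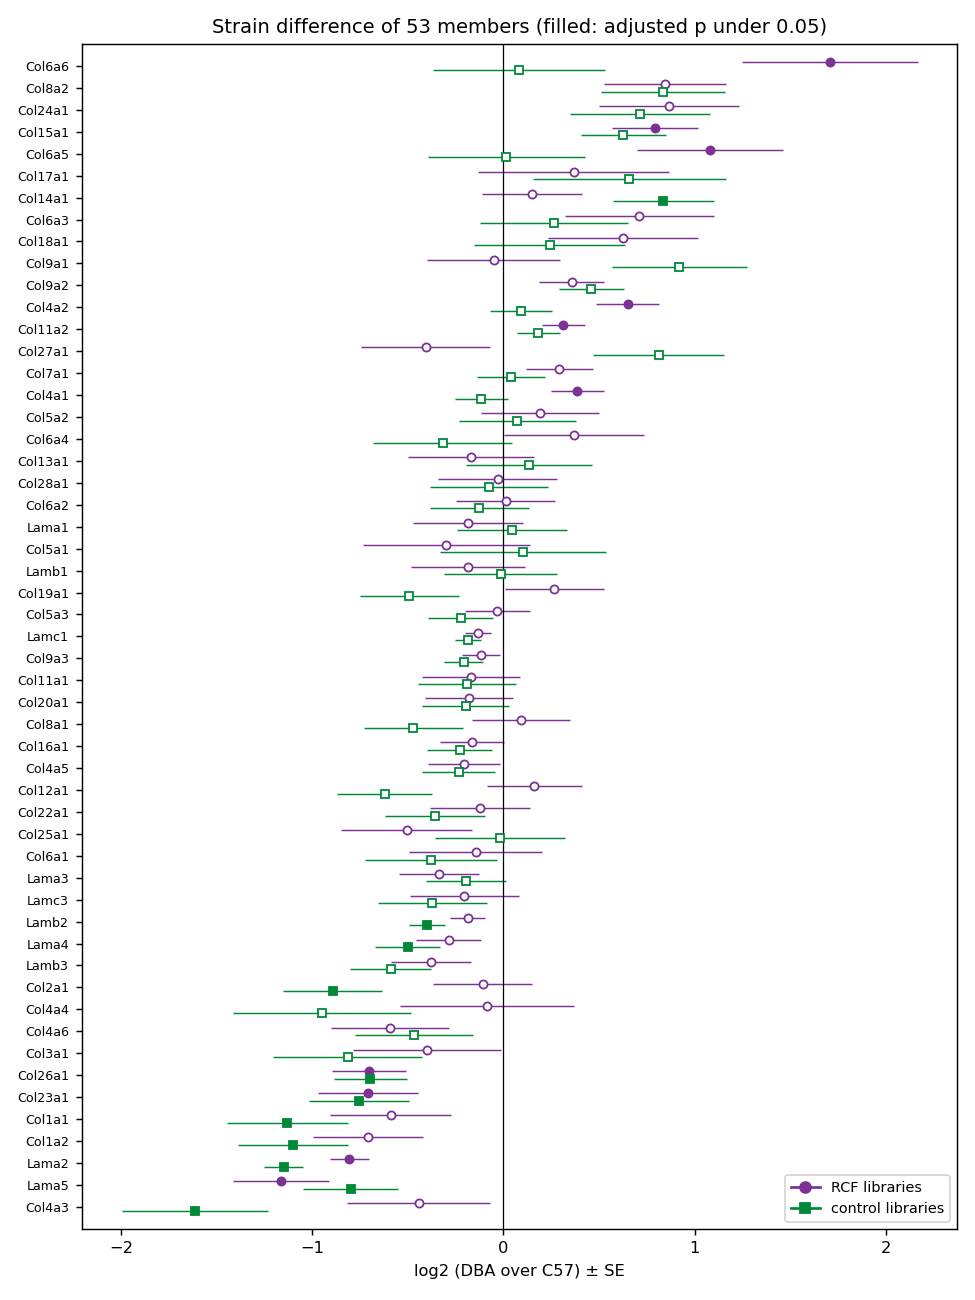
log2 fold change of DBA over C57 (bars SE) for 53 tested members in RCF libraries (purple circles) and control libraries (green squares), filled where the adjusted p is under 0.05. Lama2 and Lama5 lie at -0.81 and -1.16 in RCF libraries and at -1.15 and -0.80 in control libraries, and Col6a6 lies highest in RCF libraries at 1.71.

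Scores for meninges and vessels were also compared between the strains. In control mice the meninges score averaged 1.19 ± 0.71 in DBA and 2.09 ± 0.98 in C57 libraries (SD, n = 10 each; difference -0.90, exact permutation p = 0.0286, adjusted p = 0.129). The summed meninges markers lay at 21.1 to 104 CPM in DBA and 51.9 to 314 CPM in C57 control libraries, and 5 of the 15 markers were called lower. In RCF mice the averages were 1.58 ± 0.43 in DBA and 2.197 ± 0.913 in C57 libraries (difference -0.62, exact permutation p = 0.0720, adjusted p = 0.210), the sums 46.6 to 110 and 57.9 to 277 CPM, and 3 of 15 markers were called lower. The endothelial score was lower in DBA by 0.30 in control mice and 0.29 in RCF mice (exact permutation, two-sided, adjusted p = 0.0179 for both), with 8 and 6 of 13 markers called lower. The summed endothelial markers were 365 to 532 and 423 to 609 CPM in DBA and C57 control libraries, and 335 to 480 and 404 to 583 CPM in DBA and C57 RCF libraries. The mural score was lower by 0.62 in control mice (exact permutation, adjusted p = 0.0257) and by 0.30 in RCF mice (adjusted p = 0.210), with 4 and 3 of 12 markers called lower. The mural call in control mice was lost without any 1 of 5 libraries, C57 control males 3 and 4 and DBA control males 3, 4 and 5 (exact permutation, adjusted p = 0.0544 to 0.0750). The meninges score did not pass in either treatment. The mural sums were 204 to 425 and 310 to 598 CPM in DBA and C57 control libraries, and 233 to 395 and 297 to 527 CPM in DBA and C57 RCF libraries.

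With these scores as covariates the strain results moved apart. In control mice the Col1a2 difference was -0.35 (adjusted p = 0.290) with the meninges score and -0.20 (adjusted p = 0.711) with all 3 scores, and Col1a1 was at -0.41 (adjusted p = 0.420) and -0.25 (adjusted p = 0.754). Lamb2 kept its call with the meninges score alone and lost it with all 3 scores (-0.08, adjusted p = 0.636). Lama4 (-0.31, adjusted p = 0.283), Lama5 (-0.57, adjusted p = 0.210), Col23a1 (-0.28, adjusted p = 0.597) and Col14a1 (0.68, adjusted p = 0.155) lost theirs with the meninges score. Col23a1 also lost its call with that score in RCF mice (-0.47, adjusted p = 0.155). In total 7 members were called with the meninges score and 4 with all 3 scores in control mice, and 8 and 3 in RCF mice. The shares of all genes called in these fits are not given here, so the lower counts cannot be read as particular to the members. Some calls lost with all 3 scores came with differences close to those without covariates. In control mice these were Col26a1 (-0.66, adjusted p = 0.0625) and Col4a3 (-1.47, adjusted p = 0.0876), and in RCF mice Col15a1 (0.78, adjusted p = 0.0703), Col6a6 (1.63, adjusted p = 0.0671) and Col26a1 (-0.64, adjusted p = 0.0638). In RCF mice all 3 scores also ended the calls of Col4a2 (0.53, adjusted p = 0.111), Col4a1 (0.31, adjusted p = 0.320), Col6a5 (0.51, adjusted p = 0.494) and Col23a1 (-0.39, adjusted p = 0.443). The calls of Col4a1 (0.36, adjusted p = 0.0848) and Col6a5 (1.03, adjusted p = 0.075) were already lost with the meninges score alone. Lama2 was called in each of these fits with covariates. Lama5 in RCF mice (adjusted p of at most 0.0138 over the alternatives) and Col2a1 in control mice (at most 0.0451) also kept their calls under all 9 alternatives and in all 40 fits that left out a library.

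RCF itself called no member. In each strain and sex, edgeR found 0 of 54 members past an adjusted p of 0.05, against 0.0108% of all genes in C57 males, 0.00542% in C57 females, 0.0163% in DBA males and 0.0163% in DBA females. At an unadjusted p under 0.05 there were 7 members in DBA males (13.0%, against 6.72% of all genes), 13 in DBA females (24.1%, against 12.3%), 0 in C57 males (against 7.08%) and 8 in C57 females (14.8%, against 12.5%). limma-voom also called 0 in each, and DESeq2 called 0 except in C57 females, where it called 2, Col27a1 and Col4a2. The mean RCF effect over the 4 comparisons (0.0217% of all genes called), its difference between strains (0.0108%) and its difference between sexes (0.00542%) had 0 called members each, with 4, 9 and 9 at an unadjusted p under 0.05 (7.41%, 16.7% and 16.7%, against 6.95%, 6.0% and 8.48% of all genes). In the mean the smallest p-values belonged to Lamc1 (0.12 ± 0.05), Lama2 (0.16 ± 0.07) and Lama1 (0.43 ± 0.20), with adjusted p-values of 0.690, 0.692 and 0.706.

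In DBA females 46 of 54 members had a positive log2 fold change, with a median of 0.36 over members and -0.01 over all genes. This count was not tested, the share of all genes is not given here, and the members share the same libraries. The smallest p-value belonged to Col2a1. It had 6.95, 4.93, 3.39, 9.20 and 4.11 CPM in DBA RCF females, against 2.38, 2.65, 2.09, 1.77 and 2.29 CPM in DBA control females. The groups did not overlap, yet the log2 fold change of 1.36 ± 0.38 did not pass (adjusted p = 0.222). Col11a1 followed (1.02 ± 0.37, adjusted p = 0.272): it had 88.2, 70.4, 114, 107 and 97.1 CPM in RCF females against 60.9, 61.4, 21.3, 64.0 and 27.6 CPM in control females, also without overlap. Col12a1, a fibril-associated collagen, was next at 0.96 ± 0.36 (adjusted p = 0.282). The control group held DBA control female 3, and without the 4 stand-apart libraries Col11a1 was at 0.84 (adjusted p = 0.106) and Col2a1 at 1.35 (adjusted p = 0.112). The hypothalamus and mammillary score, on which Col2a1 rose, was 2.72 to 4.70 in DBA RCF females and 2.47 to 3.95 in DBA control females. The dopamine neuron score, on which Col11a1 rose, was 3.10 to 8.09 and 2.52 to 6.08. The part of these scores in the values was not tested.

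In DBA males the same Col11a1 lay the other way. It had 72.4, 67.6, 63.1, 65.1 and 52.7 CPM in DBA RCF males, against 90.0, 86.3, 147, 177 and 99.2 CPM in DBA control males, again without overlap, for a log2 fold change of -0.90 ± 0.37 (adjusted p = 0.716). Lama2 had the smallest p-value there (0.55 ± 0.14, adjusted p = 0.376), with 10.7, 9.10, 8.40, 9.94 and 10.6 CPM in RCF males and 6.09, 8.08, 5.75, 4.92 and 8.56 CPM in control males. Its groups overlapped by 1 library. Col9a1, a cartilage fibril-associated chain, came next at -1.20 ± 0.49 (adjusted p = 0.716). The dopamine neuron score averaged 4.00 ± 0.78 in DBA RCF males and 4.45 ± 2.49 in DBA control males (SD, n = 5 each). Over all libraries Col11a1 rose with that score, but in DBA libraries alone its slope of 0.09 did not pass (adjusted p = 0.495), and the part of the score in the Col11a1 values was not tested.

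In C57 males the 3 smallest p-values belonged to Lamb3 (0.59 ± 0.30), Col14a1 (0.74 ± 0.38) and Col12a1 (-0.69 ± 0.35), with adjusted p-values of 0.711, 0.714 and 0.714. The meninges score averaged 1.86 ± 0.57 in C57 RCF males and 2.39 ± 1.30 in C57 control males (SD, n = 5 each; exact permutation p = 0.373), and Col1a2 had a log2 fold change of -0.71 ± 0.40. Its levels were 29.8, 10.1, 7.42, 13.7 and 14.8 CPM in RCF males and 8.43, 16.8, 63.2, 15.5 and 20.01 CPM in control males, and the groups overlapped.

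In C57 females 1 library decided the leading value. Col27a1, a fibrillar collagen of cartilage, had 13.9, 9.87, 12.7, 191 and 17.3 CPM in C57 RCF females, against 12.2, 13.3, 13.4, 12.3 and 9.92 CPM in C57 control females. The log2 fold change was 2.00 ± 0.49 (adjusted p = 0.148) with all libraries and 0.14 (adjusted p = 0.896) without C57 RCF female 4, the library with the highest Hoxb5. Without it the Col27a1 difference between sexes was 0.53 in place of 1.46, and the mean RCF value of Lama1 was 0.16 in place of 0.43. Col4a2 had 96.7, 104, 89.7, 40.3 and 74.4 CPM in RCF females against 188, 158, 100, 102 and 195 CPM in control females (-0.88 ± 0.23, adjusted p = 0.186). The groups overlapped by 1 RCF library. Col4a1 lay the same way (-0.69 ± 0.19, adjusted p = 0.188). Without C57 RCF female 4 these were -0.71 (adjusted p = 0.613) and -0.56 (adjusted p = 0.621). The hypothalamus and mammillary score, on which both genes rose, averaged 1.37 ± 0.89 in C57 RCF females and 3.42 ± 1.69 in C57 control females, and its part in these values was not tested.

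None of the meninges, endothelial and mural scores passed the test for RCF in a strain and sex (exact permutation tests over 5 against 5 libraries, adjusted p between 0.200 and 0.754). The smallest p such a test can give is 0.00794. The meninges score differed by 0.73 in C57 females, 0.61 in DBA males, -0.53 in C57 males and 0.15 in DBA females. Equal tissue content was therefore not shown. Between sexes, averaged over strain and treatment, 0 of 54 members were called, against 0.146% of all genes (0.0705% higher and 0.0759% lower in females), with 5 at an unadjusted p under 0.05 (9.26%, against 9.68% of all genes). The smallest p-values were those of Col22a1 (-0.52 ± 0.18), Col8a2 (-0.63 ± 0.23) and Col5a3 (-0.31 ± 0.12), all lower in females, with adjusted p-values of 0.333, 0.339 and 0.374.

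**Figure D5:**
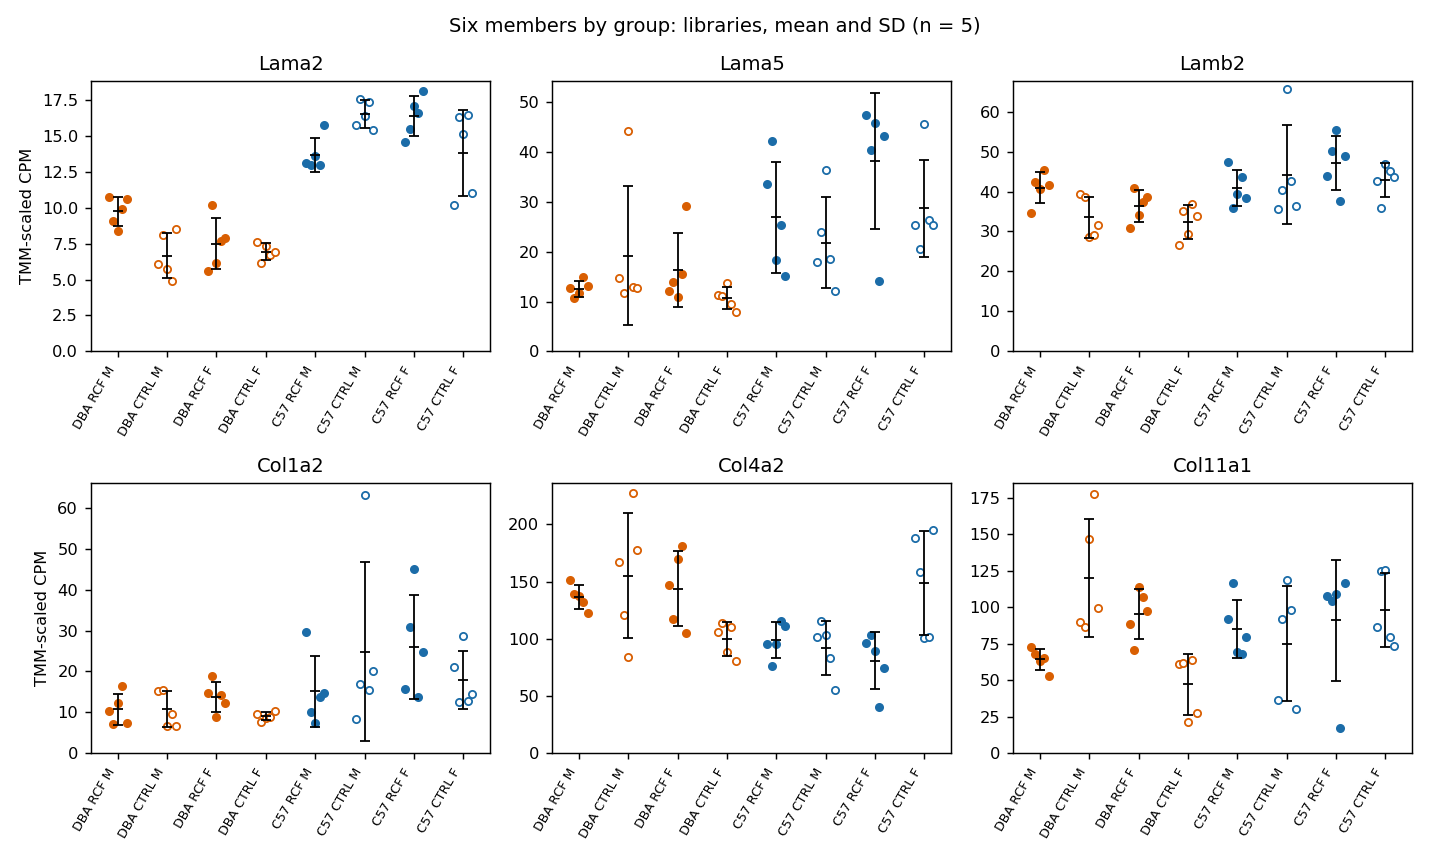
TMM-scaled CPM of 6 members in the 8 groups, DBA in orange and C57 in blue, RCF filled and control open, 1 point per library with the mean and SD (n = 5). Lama2 values are at or under 10.7 CPM in DBA groups and at or above 10.2 CPM in C57 groups.

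Genes that process, bind or accompany these proteins were described by their counts. For comparison, 7.87% of all genes were higher and 8.13% lower in DBA control mice, 11.3% higher and 12.4% lower in DBA RCF mice, and 1.12% rose with the meninges score. Of 23 genes for collagen folding and crosslinking, 22 were tested. In control mice 1 was higher and 5 were lower in DBA, with Serpinh1, a collagen chaperone, at -0.68 ± 0.12 (adjusted p = 4.3e-05) and Plod1, a lysyl hydroxylase, at -0.47 ± 0.12 (adjusted p = 0.0042). In RCF mice 3 were higher and 4 lower, again with Serpinh1 (-0.61 ± 0.12) and Plod1 (-0.62 ± 0.12) among the lower ones. On the meninges score 2 rose, Pcolce (0.79 ± 0.08), an enhancer of procollagen cleavage, and Serpinh1 (0.21 ± 0.05). Of 16 receptors 15 were tested. The integrin Itga1, a collagen receptor, was lower in DBA under both treatments (-0.43 ± 0.10 in control mice, -0.28 ± 0.10 in RCF mice), beside 1 higher in control mice and 2 further lower ones in RCF mice.

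Of 14 basement membrane partners 4 rose with the meninges score: the perlecan gene Hspg2 (0.30 ± 0.05), the nidogens Nid2 (0.57 ± 0.11) and Nid1 (0.34 ± 0.07), and Tinagl1 (0.26 ± 0.06). Nid1 (-0.55 ± 0.18) was lower in DBA control mice, while Ntn4 (0.71 ± 0.17), Agrn (0.29 ± 0.08) and Pxdn (0.43 ± 0.14) were higher. In RCF mice 4 partners were higher and 1 was lower. Of 15 other matrix glycoproteins 7 rose with the meninges score, led by Bgn (0.69 ± 0.08), Fn1 (0.25 ± 0.04) and Emilin1 (0.76 ± 0.11). In control mice 3 of them were lower in DBA, led by Aebp1 (-1.10 ± 0.24), and in RCF mice 1 was higher and 3 were lower. No gene of the 4 lists was called for RCF in any strain and sex.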

How the data were processed

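The deposited table gives raw read counts, as whole numbers for each gene and library, which the authors had not normalized. Per the labels' protocols, RNA from frozen punches (Norgen columns) went into Tecan Universal Plus mRNA-Seq libraries, read as single ends on a NextSeq instrument. bcl2fastq, cutadapt, FastQC and a GRCm38 build are named, per the submitters' processing notes. How reads were aligned and counted, with strand or without, is not given in the sources used here.

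Counts were scaled by TMM and tested with edgeR 4.0.16 (R 4.3.3), using filterByExpr, a robust quasi-likelihood fit of 8 group means with 32 residual degrees of freedom, and Benjamini-Hochberg adjustment over 18441 genes at 0.05. Slopes used mean log2 CPM of a marker list (prior count 2) beside the group means. limma 3.58.1 and DESeq2 1.42.0 were alternatives. Exact permutation tests of marker scores were adjusted over 18 tests. The fits were tested on simulated data. Within each group no pair of libraries agreed within sampling noise. Members and lists were chosen with earlier results of these data known. Text names 25 collagens and laminins picked for their roles, every called member (at most 12 a direction), and where none passed the 3 smallest p-values; partner lists get up to 4 examples by p. Other choices were alternatives, including those chosen after seeing the data (without 4 libraries that stood apart). Counts of members cover all that were tested, while the values of 1 member are not reported here. All 40 count columns were matched to a library by the labels.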

Additional observations from a re-analysis of the deposited data

Results flagged for a closer look

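Values by library were compared within each group of 5 for 13 members and 3 marker scores, 128 comparisons in all, by the gap between the extreme library and its nearest neighbour over the range of the group (limit 0.71). In 10 comparisons the limit was passed, and chance alone flags about 1 in 20 groups.

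C57 RCF female 4 was far below the rest of its group for Col11a1 (16.9 CPM, the others 104 to 116), Col25a1 (5.17 CPM, the others 122 to 151) and Lama5 (14.1 CPM, the others 40.5 to 47.4). DBA control male 3 was far above its group for Col25a1 (253 CPM, the others 44.3 to 67.1) and Lama5 (44.2 CPM, the others 11.6 to 14.7). This library had the highest Th, and C57 RCF female 4 the lowest.

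C57 control male 3 stood above its group for Col4a6 (4.73 CPM, the others 1.26 to 1.81), and it had the highest meninges score of all libraries. The meninges score of C57 RCF male 1 was 2.87, against 1.46 to 1.69 in the rest of its group. The endothelial score of DBA control male 2 was 4.91, the others lying at 4.43 to 4.52. Lama2 was 15.8 CPM in C57 RCF male 5, the others 12.95 to 13.6 CPM, and Col4a5 was 7.20 CPM in DBA RCF female 2, the others 4.62 to 5.08 CPM.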

How the results depend on the processing

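Counts of called members moved as follows, given without the share of all genes called in the same fit. With covariates, the 11 members of the control strain comparison became 7 (meninges score) and 4 (meninges, endothelial and mural scores), and the 11 of the RCF strain comparison became 3 with those 3 scores. Without the low-count filter the RCF strain count was 6. Without the 4 libraries that stood apart, an alternative chosen after seeing the data, the control strain count was 19, and the dopamine, forebrain and hypothalamus slopes had 16, 0 and 14 calls in place of 8, 9 and 8. DESeq2 called 2 members for RCF in C57 females and 7 on the endothelial score in place of 4. In DBA libraries alone the meninges, endothelial, mural and dopamine slopes had 5, 1, 0 and 3 calls, and in C57 libraries alone the endothelial, forebrain and hypothalamus slopes had 0, 1 and 2. Without the 2 libraries farthest from their group mean the endothelial, forebrain and hypothalamus slopes had 2, 1 and 4. With 3 scores in one model the meninges, endothelial, mural and forebrain slopes had 0, 0, 0 and 5. With the log2 of the summed CPM as score, the meninges difference of RCF in DBA females reversed to -0.12 (0.15 otherwise) and the endothelial strain difference in control mice was -0.23 (exact permutation adjusted p = 0.0588).

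Reversed slopes were Col27a1 on dopamine at 0.011 (without the 2 farthest libraries), Col5a1 on forebrain at -0.035 (C57 alone), Col11a1, Col16a1 and Col11a2 on forebrain at 0.040, 0.024 and 0.11 (without the 4 libraries) and Lama5 on hypothalamus at 0.00168 (with 3 scores). Leaving out 1 library at a time gave ranges of -0.036 to 0.25 for the meninges score of RCF in DBA females (reversed without DBA RCF female 2), -1.08 to -0.70 for the meninges score by strain in control mice, -0.038 to 0.20 for the mural score of RCF in C57 females and -0.73 to -0.55 for the mural score by strain in control mice. Counts ranged over 8 to 17 (control strain; 17 without DBA control female 3), 6 to 12 (RCF strain; 6 without DBA RCF male 1 and 7 without C57 RCF female 5 or DBA RCF female 4), 5 to 10 (meninges), 2 to 6 (endothelial; 2 without C57 control male 1 or DBA RCF female 2), 5 to 9 (mural), 8 to 12 (dopamine), 2 to 11 (forebrain; 5 without C57 control male 1, 2 without DBA control female 3) and 5 to 11 (hypothalamus). Col5a1 on forebrain ranged over -0.039 to 0.62.

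Among 67 called gene results, 498 of 693 alternative values kept direction and call, 189 lost the call and 6 reversed. With 1 library left out 2470 of 2680 kept both. Replicate numbers recur in each group and were not treated as pairs. Same-numbered RCF and control libraries correlated between -0.44 and 0.35. In DBA males 3 of 5 libraries correlated best with their own number, against 0 in C57 males, 1 in C57 females and 0 in DBA females. With a replicate block 0 members were called for RCF, 11 and 11 for strain in control and RCF mice, and 8, 3, 6, 8, 8 and 6 on the meninges, endothelial, mural, dopamine, forebrain and hypothalamus scores. Fitting only the libraries compared was not run for the mean, difference and sex comparisons, which use every library. With 5 libraries a group and a median within-group SD of 0.62 for members, small changes were not detectable.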
